A study of Mus musculus with 8 samples.

Results

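The mitochondrial respiratory chain and ATP synthase consist of 5 protein complexes, numbered I to V, and most of their subunits are encoded in the nucleus. The nuclear subunit genes were chosen by symbol alone, as the *Ndufa*, *Ndufb*, *Ndufc*, *Ndufs* and *Ndufv* genes, *Sdha* to *Sdhd*, the *Uqcr* genes and *Cyc1*, *Cox4* to *Cox8*, and the *Atp5* genes. This gave 86 of the 16686 genes in the deposited table, with 39 genes of complex I, 4 of complex II, 9 of complex III, 17 of complex IV and 17 of complex V. They were measured in the TA (tibialis anterior) muscle, a fast-twitch muscle of the lower leg, of 4 WT Old and 4 C2-/- Old mice. All were male FVBN mice, labelled as 22 months old, and each mouse gave its own poly(A)-selected RNA library. In C2-/- mice a Neo cassette between LoxP sites replaces exons 2 to 22 of *Mybpc2*, the gene of fast myosin-binding protein C, in every cell of the body and throughout life. WT Old mice carry the intact gene. Another entry in the labels, which has the mice grown up to 2 months, conflicts with the age of 22 months, and both genotypes carry it. Since RNA came from whole muscle, fewer cells of a type and less RNA per cell cannot be told apart in any of the values.

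Complex I takes electrons from NADH and complex II from succinate, and both pass them to ubiquinone. Complex III hands them on to cytochrome c, and complex IV, cytochrome c oxidase, to oxygen. Complexes I, III and IV pump protons across the inner mitochondrial membrane, and complex V, ATP synthase, lets the protons flow back and makes ATP. Fast glycolytic fibres, which make up most of the TA muscle, hold fewer mitochondria than slow and type IIa fibres, and striated muscle uses its own isoforms of some complex IV subunits.

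The targeted gene was checked first. *Mybpc2* expression was 4964, 5450, 5101 and 7392 CPM (counts scaled to library size, with TMM factors) in WT Old mice 1 to 4, and 4.35, 4.02, 38.3 and 3.85 CPM in C2-/- Old mice 1 to 4. Every C2-/- Old library thus held far less *Mybpc2* RNA than every WT Old library, and C2-/- Old mouse 3 held more than the other C2-/- Old mice. The counts of a library summed to between 25425993 and 29747692, and 3 counts, taken as the smallest level that can be shown, were worth 0.101 to 0.118 CPM, which covers counting error only. The muscle carried its defining fast-fibre RNAs, with summed levels of the 8 fast-fibre markers of 133500 to 191500 CPM in WT Old and 139500 to 165000 CPM in C2-/- Old. In what follows, the values of a group are always given for mice 1, 2, 3 and 4 in that order, and log2 fold changes are C2-/- Old against WT Old.

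No subunit gene passed the test between the genotypes. Of the 86 genes, 83 passed the filter on low counts and were tested with all 12542 genes that passed. Of these 83, 0 reached an adjusted p under 0.05 (edgeR quasi-likelihood F test, adjusted by Benjamini-Hochberg over all tested genes, lowest adjusted p = 0.968), against 0.0319% of all tested genes. Before adjustment, 0 of the 83 genes had p under 0.05 with edgeR, 1 with DESeq2's Wald test and 0 with limma-voom, against 5.29% of all tested genes with edgeR. The 95% interval of the fold change lay within 1.5-fold in either direction for 73 of the 83 genes, or 88%, against 53% of all tested genes, which include genes of lower counts. For each of these 73 genes, taken alone, a change of 1.5-fold lay outside the interval.

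**Figure D1:**
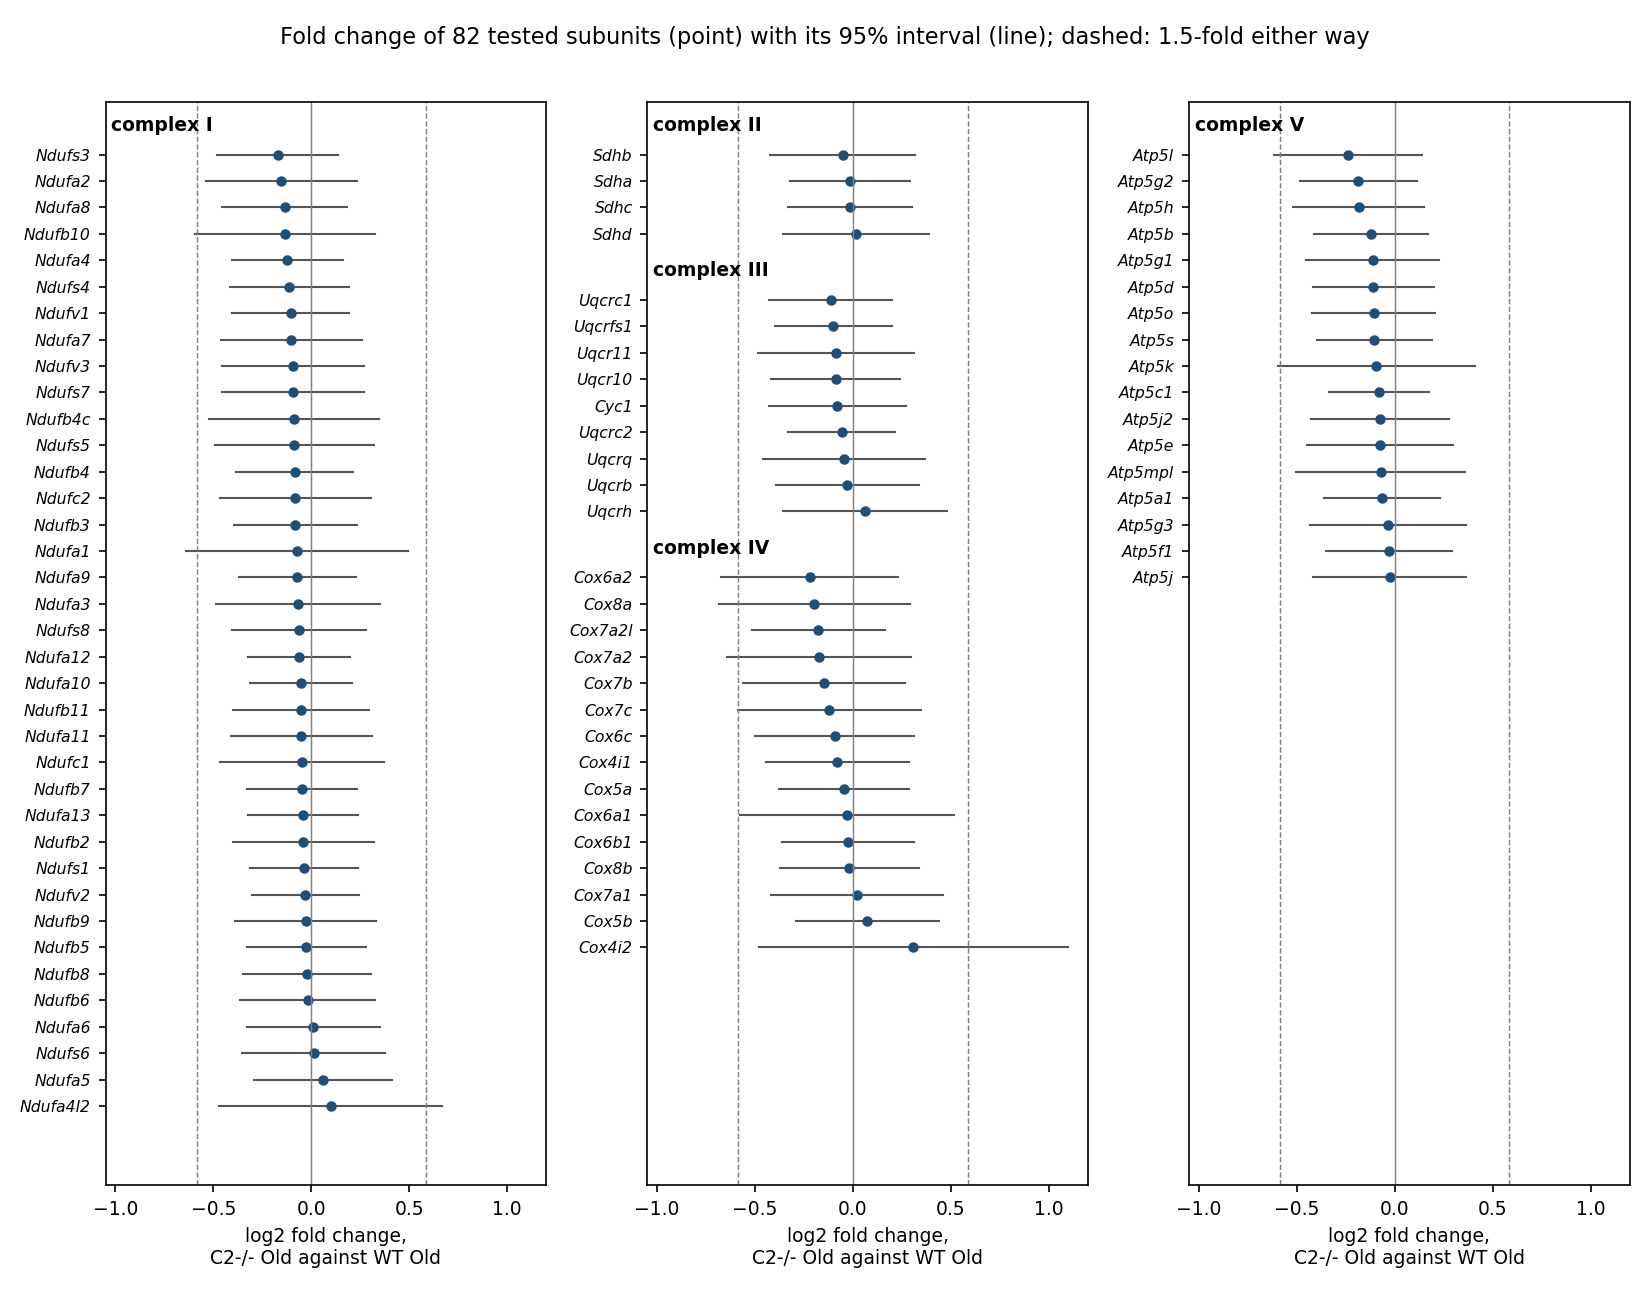
Log2 fold change of 82 of the 83 tested subunit genes (point) with its 95% interval (line), ordered within each complex, with dashed lines at 1.5-fold. The points lie between −0.24 (*Atp5l*) and 0.31 (*Cox4i2*), and every interval includes 0.

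Most subunit genes had a log2 fold change slightly below 0. This was the case for 74 of 83, or 89.2%, against 54.2% of all tested genes, with a median log2 fold change of −0.07 against −0.02 for all tested genes. By complex, 34 of 38, 3 of 4, 8 of 9, 12 of 15 and 17 of 17 genes of complexes I to V were on this side, with medians of −0.07, −0.02, −0.08, −0.08 and −0.09. The direction depended on individual mice. Without WT Old mouse 1, only 29 of the 83 genes had a log2 fold change below 0 and the median was 0.03, while without C2-/- Old mouse 1 the number was 82 and the median −0.18. Without C2-/- Old mouse 4 it was 47 of 83, with a median of −0.02.

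The differences between mice of the same genotype were larger than those between the genotypes. The level of a complex was taken as the mean log2 CPM of its tested genes, centred on the average over all 8 mice. For complex I the level was 0.30, 0.04, −0.03 and −0.18 in WT Old, and 0.25, −0.13, −0.04 and −0.21 in C2-/- Old. Mouse 1 was the highest in both genotypes, and the remaining mice of the genotypes lay among each other. For complex II it was 0.29, −0.18, 0.09 and −0.17 in WT Old, and 0.26, −0.17, −0.14 and 0.01 in C2-/- Old. For complex III it was 0.30, 0.05, −0.02 and −0.22 in WT Old, and 0.25, −0.14, −0.03 and −0.20 in C2-/- Old. Mouse 1 was again the highest of each genotype in complexes II and III. For complex IV the level was 0.35, 0.22, −0.16 and −0.29 in WT Old, and 0.33, −0.14, −0.13 and −0.18 in C2-/- Old. For complex V it was 0.31, 0.05, 0.01 and −0.16 in WT Old, and 0.23, −0.15, −0.02 and −0.26 in C2-/- Old. The genotypes overlapped for every complex, and the difference of their means ranged from −0.01 for complex II to −0.10 for complex V, against standard deviations between mice of 0.19 to 0.30.

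**Figure D2:**
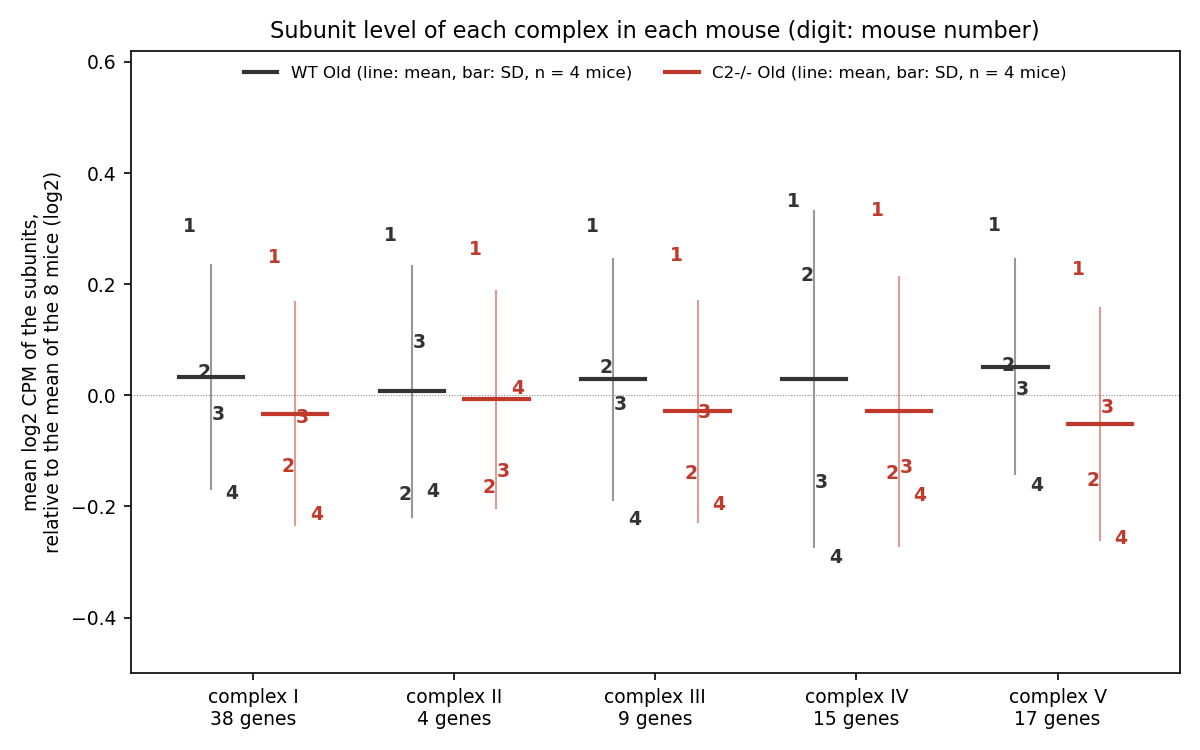
Mean log2 CPM of the subunits of each complex in each mouse, relative to the mean of the 8 mice, with the mean (line) and SD (bar) of each group and digits for the mouse numbers. The mice numbered 1 lie highest in both genotypes and the genotypes overlap in all 5 complexes.

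The subunit genes went up and down together across mice. Of the 83 genes, 71 were highest in mouse 1 among the WT Old mice, against 21.6% of all tested genes, and 65 were lowest in mouse 4, against 19.3%. Among the C2-/- Old mice, 78 of 83 were highest in mouse 1, against 27.1% of all tested genes, and 52 were lowest in mouse 4, against 25.1%. Together the 86 genes took 3.43%, 2.70%, 2.82% and 2.30% of all counts in WT Old, and 3.27%, 2.58%, 2.55% and 2.56% in C2-/- Old. The libraries numbered 1 thus devoted the largest share of their counts to these genes, in either genotype.

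Between genes, levels were compared in TPM, which takes transcript length into account. The muscle isoform of a complex IV subunit, *Cox6a2*, was by far the highest, with a mean of 6972 TPM in WT Old and 6345 TPM in C2-/- Old, 2.35 and 2.22 times the level of the next gene. That gene was *Atp5b*, the catalytic subunit of ATP synthase, with 2970 and 2857 TPM. *Cox8b*, another muscle isoform of complex IV, followed with 2146 and 2209 TPM, and *Atp5g1*, which encodes the ring protein of ATP synthase, with 1954 and 1889 TPM. At the low end of the tested genes were *Cox4i2* with 6.53 and 8.54 TPM, *Atp5s* with 17.3 and 16.7 TPM, and *Ndufa4l2* with 24.8 and 27.8 TPM. The median subunit gene had 399.6 TPM in complex I, 400.2 in complex II, 774 in complex III, 1182 in complex IV and 1035 in complex V of WT Old muscle. In C2-/- Old muscle these medians were 405, 413, 763, 1195 and 1052 TPM. The medians were taken over the tested genes of each complex.

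**Figure D3:**
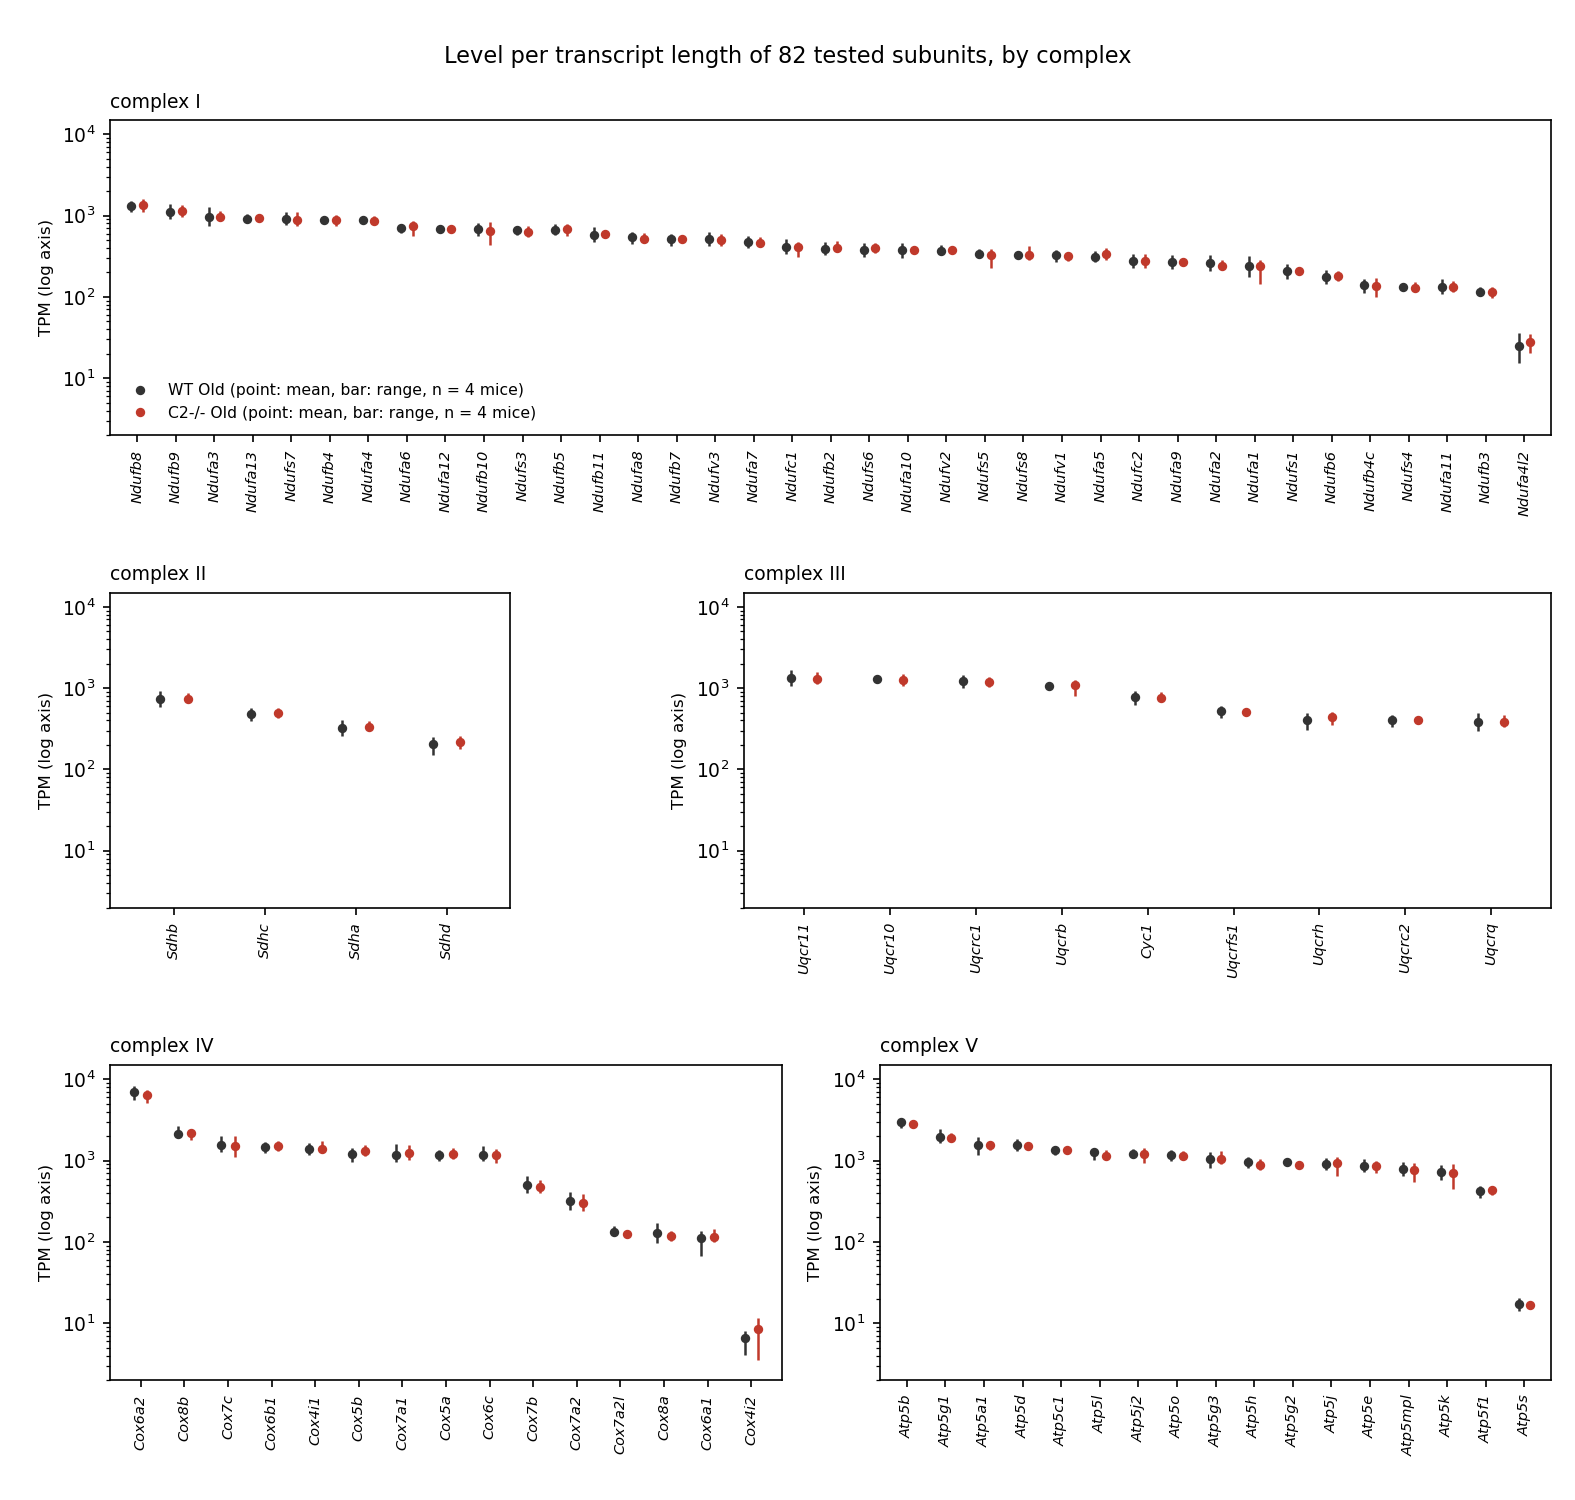
Mean TPM (points, log axis) and range over 4 mice (bars) of 82 of the 83 tested subunit genes in WT Old and C2-/- Old, ordered within each complex by the WT Old mean. *Cox6a2* stands above all others and *Cox4i2*, *Atp5s* and *Ndufa4l2* lie lowest, in both genotypes.

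The overlap of the genotypes was also counted. In 1 of the 83 tested subunit genes the 4 mice of one genotype did not overlap with the 4 of the other, with lower values in C2-/- Old, against 1.36% of all tested genes with lower and 2.03% with higher values in C2-/- Old. With CPM of the total counts, without TMM factors, this held for 0 subunit genes.

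Complex I was represented by 38 tested genes. The core genes described here overlapped between the genotypes. *Ndufs3*, a core subunit, had 369, 335.5, 319 and 286 CPM in WT Old and 362, 277, 275 and 249 CPM in C2-/- Old. Its log2 fold change was −0.17 with an SE (standard error) of 0.14. C2-/- Old mouse 1 was among the WT Old mice. With a mouse left out, the log2 fold change of *Ndufs3* ranged from −0.29, without C2-/- Old mouse 1, to −0.11. In each of these fits 0 subunit genes were called between the genotypes. *Ndufv1*, which binds NADH and its flavin, had 333, 263, 292 and 237 CPM in WT Old and 301, 248, 230.1 and 268 CPM in C2-/- Old. *Ndufs1*, which carries iron-sulphur clusters, had 343.5, 268, 345.5 and 284 CPM in WT Old and 334, 309.7, 301 and 265 CPM in C2-/- Old. The log2 fold changes of *Ndufv1* and *Ndufs1*, −0.11 and −0.04, were smaller than their SEs of 0.13 and 0.125. *Ndufb8*, an accessory subunit of the membrane arm, had the highest level of complex I, with 1311 ± 203 TPM in WT Old and 1344 ± 197 TPM in C2-/- Old (mean ± SD, n = 4 each).

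Near-identical copies exist for 1 subunit of complex I, and counts can also be uncertain where genes overlap. The intervals of 22 of the 86 subunit genes overlap another protein-coding gene, among them *Cox6a2* with *Itgad*, and whether counting used the strand is not given in the sources used here. *Ndufb4*, *Ndufb4b* and *Ndufb4c* were the only subunit genes with estimated counts that were not whole numbers, so that their reads may have been divided between them. *Ndufb4b* had between 0 and 7.30 estimated counts per library and did not pass the filter. The 3 genes together had 251, 233, 207 and 208.5 CPM in WT Old and 257, 199.8, 201 and 189.9 CPM in C2-/- Old, a difference within the spread of the mice (two-sided exact permutation test, p = 0.457).

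In complex II, none of the 4 genes had a log2 fold change further from 0 than −0.05. *Sdha*, the flavoprotein that oxidises succinate, had 553.5, 446, 572.5 and 475 CPM in WT Old and 622.5, 456, 469 and 476 CPM in C2-/- Old. C2-/- Old mouse 1 had the most *Sdha* RNA of the 8 mice, and the other C2-/- Old mice lay among the WT Old mice. *Sdhb*, the iron-sulphur subunit, had the highest TPM of this complex, with 734.5 ± 165 in WT Old and 739 ± 91.6 in C2-/- Old (mean ± SD, n = 4 each). The membrane anchors *Sdhc* and *Sdhd* had log2 fold changes of −0.02 and 0.02 (SEs 0.14 and 0.17).

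Complex III had 9 tested genes, with log2 fold changes between −0.11 and 0.06. *Uqcrc1*, a core protein of the matrix side, had 1245, 977, 1182 and 978 CPM in WT Old and 1237, 946, 891 and 975 CPM in C2-/- Old. Its log2 fold change of −0.11 (SE 0.14) was the furthest from 0 of this complex. *Uqcrfs1*, the Rieske iron-sulphur protein, had a log2 fold change of −0.10 (SE 0.13), and *Cyc1*, the haem protein that passes electrons to cytochrome c, of −0.08 (SE 0.16). The small subunit *Uqcr11* had the highest level of this complex, with 1328 ± 243 TPM in WT Old and 1307 ± 194.5 TPM in C2-/- Old (mean ± SD, n = 4 each).

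In complex V all 17 genes had a log2 fold change below 0, between −0.24 and −0.03, and all 17 intervals included 0. This held for 100% of the genes against 54.2% of all tested genes. Without WT Old mouse 1 it held for 9 of 17, or 52.9%, against 53.7% of all tested genes, and without C2-/- Old mouse 4 for 10 of 17. Without any other single mouse it held for 14 to 17 of 17. With both mice numbered 1 left out, an alternative chosen after seeing the data, it held for 17 of 17, against 52.4% of all tested genes. The median of the complex was −0.0046 without WT Old mouse 1 and −0.19 without C2-/- Old mouse 1. *Atp5b*, the catalytic subunit, had 3493, 2795, 3117 and 2712 CPM in WT Old and 3255, 2730, 2611 and 2543 CPM in C2-/- Old. C2-/- Old mouse 1 was above all WT Old mice but mouse 1. The gene showed a log2 fold change of −0.12 (SE 0.13). *Atp5a1*, which alternates with it in the catalytic head, and *Atp5c1*, which forms the rotating stalk, had log2 fold changes of −0.07 and −0.08 (SEs 0.13 and 0.12). *Atp5l*, a membrane subunit at the interface between paired ATP synthases, had the smallest p of this complex, with 357, 383, 286 and 249 CPM in WT Old and 336, 231, 276 and 236 CPM in C2-/- Old. Its log2 fold change was −0.24 (SE 0.17, unadjusted p = 0.189, Benjamini-Hochberg adjusted p = 0.968, edgeR quasi-likelihood). The ring protein is encoded by *Atp5g1*, *Atp5g2* and *Atp5g3*, which differ in the targeting sequence that is cut off on import. Their summed level was 4715, 3591, 4156 and 3299 TPM in WT Old and 4494, 3677, 3547 and 3564 TPM in C2-/- Old. The level of *Atp5g1* in TPM was 2.05 times that of *Atp5g2* and 1.89 times that of *Atp5g3* in WT Old, and 2.15 and 1.80 times in C2-/- Old.

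Complex IV, with 15 tested genes, held the widest range of log2 fold changes, from −0.22 to 0.31. *Cox6a2*, on chromosome 7 from 128204203 to 128221052, had 2783, 2981, 1677 and 1906 CPM in WT Old and 2278, 1812, 1625 and 2305 CPM in C2-/- Old. WT Old mice 1 and 2 were above every C2-/- Old mouse, while WT Old mice 3 and 4 lay among them. The gene showed a log2 fold change of −0.22 (SE 0.20). *Cox4i1*, the widespread form of its subunit, had 639.7, 541, 492 and 437.5 CPM in WT Old and 651, 444, 461.5 and 439 CPM in C2-/- Old, with mouse 1 the highest of each genotype. *Cox5a*, which binds beside it, had a log2 fold change of −0.05 (SE 0.15), and *Cox6b1* and *Cox7b* of −0.03 and −0.15 (SEs 0.15 and 0.19). *Cox7a2l*, a relative of *Cox7a2* whose product joins complexes III and IV into supercomplexes, had a log2 fold change of −0.18 (SE 0.15) and the smallest unadjusted p of complex IV, 0.273 (Benjamini-Hochberg adjusted p = 0.968, edgeR quasi-likelihood).

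Several complex IV subunits exist in a widespread form and a form restricted to certain tissues, and the muscle forms dominated in both genotypes. *Cox6a2*, *Cox7a1* and *Cox8b* are the forms of heart and skeletal muscle, *Cox4i2* is a form of lung and of low oxygen, and *Cox6b2* and *Cox7b2* are forms of testis. *Cox6a2* exceeded *Cox6a1* 63.2-fold in TPM in WT Old and 55.8-fold in C2-/- Old. *Cox8b* exceeded *Cox8a* 16.9-fold and 18.8-fold, and *Cox7a1* exceeded *Cox7a2* only 3.68-fold and 4.17-fold. *Cox4i1*, in turn, exceeded the restricted *Cox4i2* 213-fold and 161-fold. The testis forms were almost not detected. *Cox6b2* had 10, 28, 11 and 3 counts in WT Old and 6, 0, 3 and 3 counts in C2-/- Old, and *Cox7b2* had at most 8 counts in any mouse.

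The promoters of the muscle forms and their widespread partners, as far as the RefSeq table for GRCm38.p6 holds them, are shown because each form is read from a gene of its own. Each runs from 250 bases before to 50 bases after the start of transcription. The capitals mark matches to simplified letter patterns for factors that act on genes of mitochondrial proteins. The motifs searched on both strands were GCGCA, 1 base of any kind and GCGC for NRF1, CCGGAAG for ETS factors such as GABP, AAGGTCA for ERR, AAGATGGC for YY1, GGGCGG for SP1 and CTA, 4 bases of any kind and TAG for MEF2.
Cox7a1, chr7:30183921-30184220, plus strand: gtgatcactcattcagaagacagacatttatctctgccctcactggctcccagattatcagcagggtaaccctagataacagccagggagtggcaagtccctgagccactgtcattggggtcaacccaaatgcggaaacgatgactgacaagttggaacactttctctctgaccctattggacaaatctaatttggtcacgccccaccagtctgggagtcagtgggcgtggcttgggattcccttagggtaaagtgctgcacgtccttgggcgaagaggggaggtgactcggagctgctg
Cox7a2, chr9:79759804-79760103, minus strand: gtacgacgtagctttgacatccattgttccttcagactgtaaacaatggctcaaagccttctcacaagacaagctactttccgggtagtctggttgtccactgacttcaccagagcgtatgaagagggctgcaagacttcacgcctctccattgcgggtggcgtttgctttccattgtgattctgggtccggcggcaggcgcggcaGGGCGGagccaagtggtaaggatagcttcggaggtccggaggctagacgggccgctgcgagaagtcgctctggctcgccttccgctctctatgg
Cox8b, chr7:140900397-140900696, minus strand: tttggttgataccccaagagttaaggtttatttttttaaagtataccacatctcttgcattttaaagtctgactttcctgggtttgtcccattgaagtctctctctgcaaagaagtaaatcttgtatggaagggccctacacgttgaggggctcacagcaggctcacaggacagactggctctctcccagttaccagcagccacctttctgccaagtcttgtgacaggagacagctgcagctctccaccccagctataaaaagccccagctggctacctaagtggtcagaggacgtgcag
Cox8a, chr19:7217567-7217866, minus strand: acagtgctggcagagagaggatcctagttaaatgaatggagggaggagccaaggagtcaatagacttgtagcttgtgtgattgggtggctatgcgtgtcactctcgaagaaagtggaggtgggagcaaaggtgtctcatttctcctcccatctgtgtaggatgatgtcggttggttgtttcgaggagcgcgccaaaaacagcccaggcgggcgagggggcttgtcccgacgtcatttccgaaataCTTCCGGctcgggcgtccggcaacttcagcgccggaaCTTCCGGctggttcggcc
Cox6a1, chr5:115348909-115349208, minus strand: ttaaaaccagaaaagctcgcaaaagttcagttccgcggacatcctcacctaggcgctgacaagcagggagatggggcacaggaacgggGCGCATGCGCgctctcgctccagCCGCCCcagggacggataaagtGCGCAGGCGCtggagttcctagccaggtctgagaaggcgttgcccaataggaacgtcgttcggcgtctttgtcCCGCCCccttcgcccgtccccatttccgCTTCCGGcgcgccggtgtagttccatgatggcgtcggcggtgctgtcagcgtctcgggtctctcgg

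The windows of the muscle forms *Cox7a1* and *Cox8b* held 0 of the searched motifs. This was not particular to muscle forms, since the windows of *Cox7b*, the widespread form of its subunit, and of *Cox7c*, *Ndufv1* and *Uqcrfs1* also held 0. The window of *Cox7a2* held 1 motif, of SP1, that of *Cox8a* held 2, both of ETS factors, and that of *Cox6a1* held 5, of NRF1, ETS factors and SP1. Promoters were found for 69 of the 86 genes, with 74 windows in all. Among these windows, 24.3% held the NRF1 motif, against 9.56% of the windows of genes tested here and 4.60% of all windows in the table. The ETS motif was in 21.6%, against 16.7% and 8.86%, the ERR motif in 10.8%, against 3.14% and 4.72%, and the YY1 motif in 13.5%, against 4.26% and 2.75%. The SP1 motif was in 39.2%, against 61.6% and 35.7%, and the MEF2 motif in 1.35%, against 3.17% and 3.69%. A match describes letters only, and binding was not measured here. Only the letter pattern given above was searched for each factor. Sites with other letters were not counted, so that a window without a match may still hold a site.

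The balance between the isoforms was compared in each mouse as the share of the restricted form in the counts of its pair. *Cox7a1* made up 62.7%, 56.2%, 63.2% and 61.9% of the counts of *Cox7a1* and *Cox7a2* in WT Old, and 63.1%, 64.6%, 64.5% and 65.1% in C2-/- Old. The C2-/- Old mice lay higher, with an overlap only between WT Old mouse 3 and C2-/- Old mouse 1, and WT Old mouse 2 was the lowest. The exact 95% binomial interval of WT Old mouse 2, 55.2% to 57.3%, did not reach the intervals of the other mice. The mean share was 61.0 ± 3.22% in WT Old and 64.35 ± 0.854% in C2-/- Old (mean ± SD, n = 4 each), a difference of 3.35 percentage points (two-sided exact permutation test, p = 0.0571, and 0.286 after Benjamini-Hochberg adjustment over the 5 pairs compared). Without WT Old mouse 2 the difference was 1.76 percentage points. The smallest p that 4 mice against 4 allow is 0.029.

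*Cox8b* made up 92.3%, 87.5%, 92.4% and 92.4% of its pair in WT Old, and 91.7%, 91.7%, 90.8% and 93.6% in C2-/- Old. WT Old mouse 2 again stood lowest, with an exact 95% binomial interval of 86.8% to 88.1%, and without it the difference of the mean shares, C2-/- Old minus WT Old, was −0.39 percentage points instead of 0.83. *Cox8a*, the widespread partner, had 37.2, 49.6, 24.7 and 25.8 CPM in WT Old and 36.3, 28.6, 29.0 and 26.0 CPM in C2-/- Old, highest in WT Old mouse 2. *Cox6a2* made up 98.6% to 99.1% of its pair in WT Old and 98.4% to 99.0% in C2-/- Old. *Cox4i2* took 0.402%, 0.590%, 0.499% and 0.338% of its pair in WT Old and 0.658%, 0.706%, 0.276% and 0.752% in C2-/- Old, with overlap in both directions. *Ndufa4l2*, a relative of *Ndufa4* that is known to rise in low oxygen, took 3.79% to 7.03% in WT Old and 5.13% to 7.35% in C2-/- Old. Two-sided exact permutation tests gave p = 0.714 for *Cox8b*, 0.343 for *Cox6a2*, 0.286 for *Cox4i2* and 0.286 for *Ndufa4l2*. *Ndufa4* is grouped with complex I here by its symbol, although its product has been placed in complex IV.

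**Figure D4:**
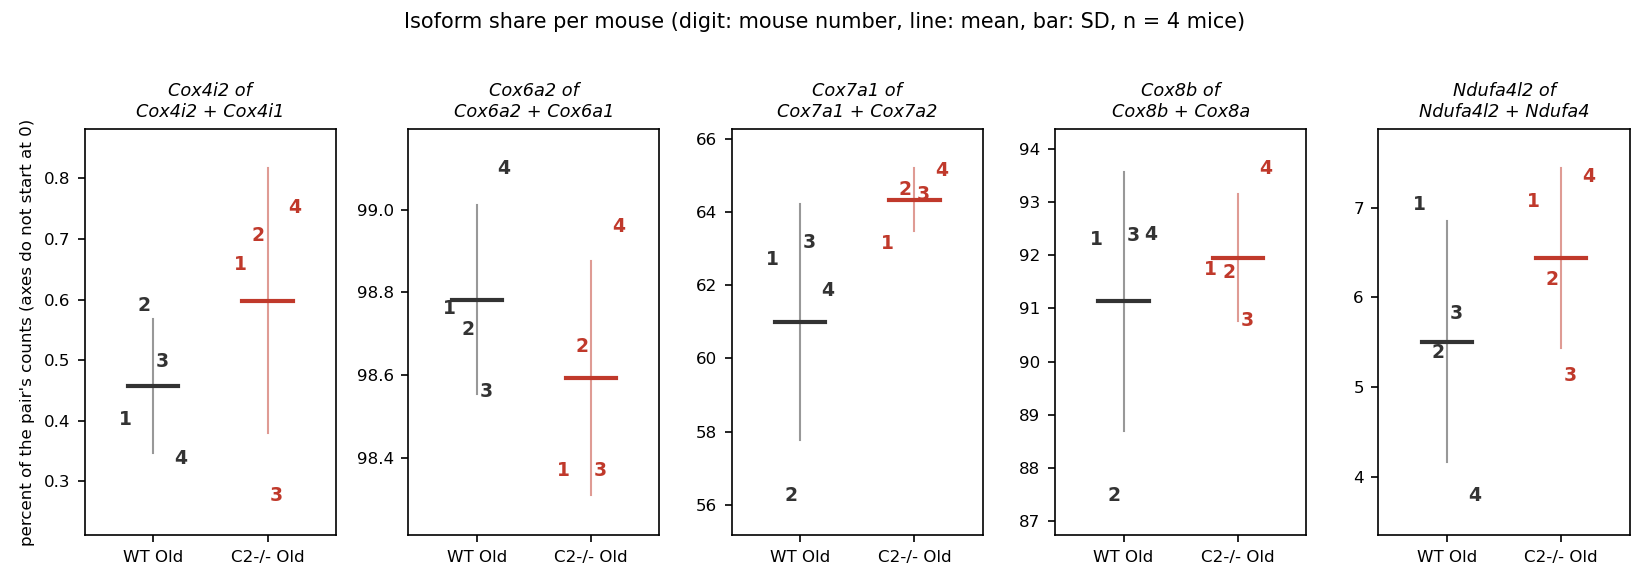
Share of the restricted isoform in the counts of its pair (percent, axes not starting at 0) for each mouse, with the mean (line) and SD (bar) of 4 mice per group and digits for the mouse numbers. WT Old mouse 2 lies lowest for *Cox7a1* and *Cox8b*, and the genotypes overlap in all 5 pairs.

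Many subunit mRNAs are short, and the levels of short mRNAs differed between libraries also outside the respiratory chain. Each gene was classed by its longest transcript, so that the class of long transcripts may hold genes read mainly as shorter ones. *Atp5g1*, for example, is classed with 4715 bases but had 1954 TPM at 807 CPM in WT Old. *Sdha*, with 2900 bases, had 326 TPM at 512 CPM, so that the length behind the TPM of *Atp5g1* was the shorter one. For transcripts of up to 600 bases, the median level of 24 subunit genes was 0.36, 0.16, −0.16 and −0.24 in WT Old and 0.28, −0.11, −0.0041 and −0.29 in C2-/- Old, on the log2 scale, centred on the average over all 8 mice. The median of the 97 other genes of this length was 0.15, 0.41, −0.24 and −0.11 in WT Old and 0.16, −0.09, 0.04 and −0.24 in C2-/- Old. Both sets were above 0 in WT Old mice 1 and 2 and in C2-/- Old mouse 1, and lowest among C2-/- Old mice in mouse 4. For transcripts of 600 to 1200 bases, 34 subunit genes had medians of 0.31, 0.05, −0.04 and −0.18 in WT Old. In C2-/- Old these were 0.29, −0.16, −0.05 and −0.21. The 875 other genes of this length had 0.11, 0.18, −0.14 and −0.08 in WT Old and 0.11, −0.08, 0.02 and −0.09 in C2-/- Old. For transcripts over 1200 bases, the 24 subunit genes had medians of 0.26, −0.06, 0.08 and −0.14 in WT Old and 0.17, −0.13, −0.11 and −0.12 in C2-/- Old. The median of the 11310 other genes of this length stayed between −0.02 and 0.02 in every mouse. These are most of all tested genes, so that the scaling of the libraries holds their median near 0. The high level in both mice numbered 1 was thus present also in subunit genes whose longest transcript is over 1200 bases. In WT Old mouse 2 the level was 0.16 in subunit genes of up to 600 bases, but only 0.05 in those of 600 to 1200 bases. Shorter transcripts within the class over 1200 bases were not separated. The part of transcript length in the differences between mice was not tested further.

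**Figure D5:**
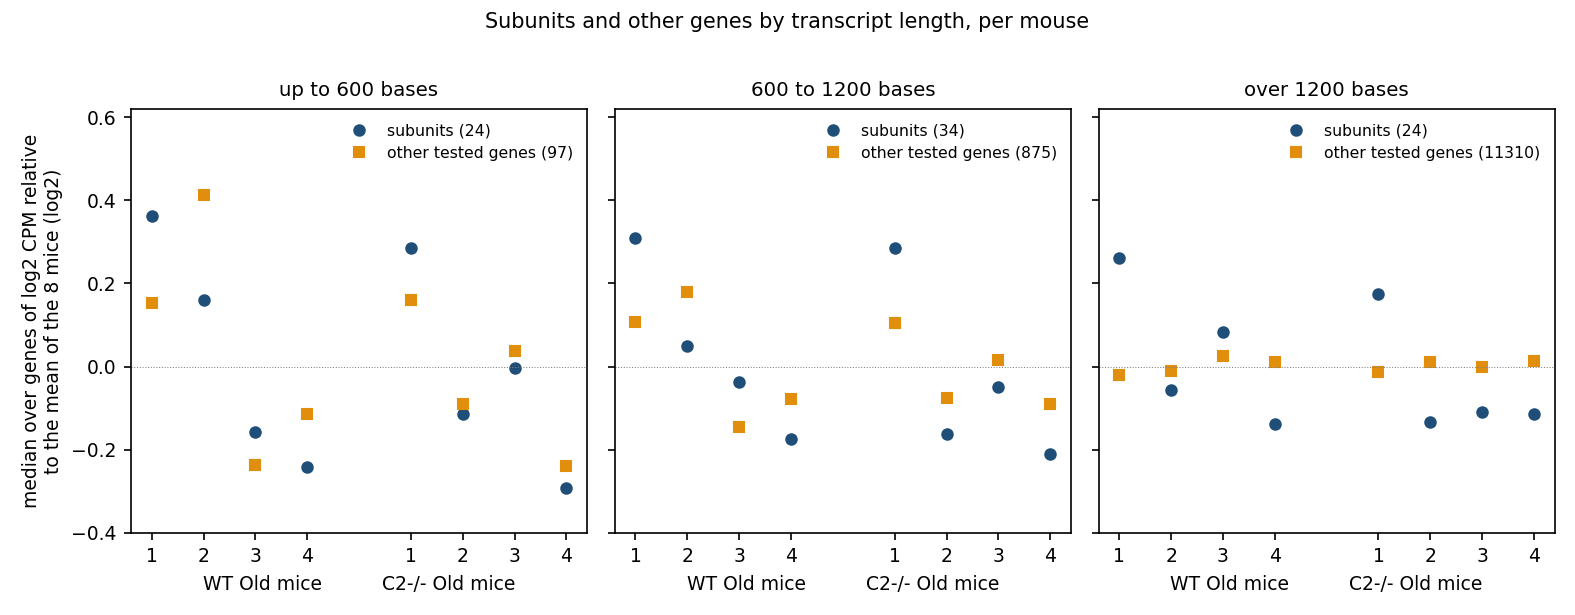
Median log2 CPM, relative to the mean of the 8 mice, of subunit genes (circles) and other tested genes (squares) in 3 classes of the length of the longest transcript, for each mouse. Among short transcripts both sets are high in WT Old mice 1 and 2 and C2-/- Old mouse 1. Among transcripts over 1200 bases the median of the other genes stays between −0.02 and 0.02, where the scaling holds it, and that of the subunits does not.

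The genes around the respiratory chain also showed no difference between the genotypes that passed the adjusted test. In 9 lists of assembly factors, carriers and nucleotide exchangers, coenzyme Q synthesis, the citric acid cycle and transcriptional regulators, 111 genes were tested, and 0 had an adjusted p under 0.05, 1 had an unadjusted p under 0.05 with a higher level and 1 with a lower level in C2-/- Old (edgeR's quasi-likelihood test, against 3.38% and 1.91% of all tested genes). The higher gene was *Ndufaf1*, a complex I assembly factor, with 14.3 ± 0.769 CPM in WT Old and 20.0 ± 4.85 CPM in C2-/- Old (mean ± SD, n = 4 each, log2 fold change 0.48, SE 0.16, Benjamini-Hochberg adjusted p = 0.771, edgeR). Of the 17 genes of the citric acid cycle, 17 had a log2 fold change below 0, against 54.2% of all tested genes, with a median of −0.07. Their mean log2 level, centred as for the complexes, was 0.19, −0.08, 0.14 and −0.07 in WT Old. In C2-/- Old it was 0.16, −0.09, −0.11 and −0.13, so that mouse 1 was the highest of each genotype and the genotypes overlapped. Whether the count depends on single mice was not tested. Of the 15 assembly factors of complex I, 7 had a log2 fold change below 0, and of the 7 of complex III, 1 had, with medians of 0.0016 and 0.04. The remaining medians were 0.0048 for complex II assembly, −0.04 for complex IV assembly, −0.09 for ATP synthase assembly, −0.09 for carriers and nucleotide exchange, −0.07 for coenzyme Q synthesis and −0.08 for the regulators. By list, the genes with the smallest p values were the following. *Uqcc1* and *Lyrm7*, which assist the assembly of complex III, had log2 fold changes of 0.29 and 0.70 (SEs 0.13 and 0.36), and *Sco1* and *Coa6*, which help to deliver copper to complex IV, of 0.32 and 0.22 (SEs 0.20 and 0.17). *Fmc1* and *Atpaf1*, assembly factors of ATP synthase, had log2 fold changes of −0.22 and −0.15 (SEs 0.20 and 0.15). *Slc25a5*, an exchanger of ADP and ATP, and *Vdac2*, a channel of the outer membrane, had log2 fold changes of −0.27 and −0.15 (SEs 0.15 and 0.11). For complex I, *Ndufaf8* had −0.26 beside *Ndufaf1*, and for complex II, *Sdhaf3* and *Sdhaf1* had −0.07 and 0.01 as log2 fold changes (SEs 0.15, 0.24 and 0.12). In coenzyme Q synthesis these were *Coq4* with −0.15 and *Coq10a* with −0.11 (SEs 0.16 and 0.16), and in the citric acid cycle, *Suclg2*, a subunit of succinyl-CoA ligase, with −0.11 (SE 0.10). Among the regulators, *Gabpa*, a subunit of GABP, had a log2 fold change of −0.16 (SE 0.10), and *Ppard* of −0.42 (SE 0.28). The subunits that the mitochondrial genome encodes were not analysed here.

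Over the 8 mice, the tested genes outside the subunits that followed the mean level of all subunits most closely were *Dnajc19*, *Etfa*, *Itgb4*, *Tomm5* and *Lpl*, with Pearson correlations of log2 CPM of 0.99, 0.98, 0.97, 0.97 and 0.96. These are descriptions over 8 libraries that share depth and scaling. *Dnajc19* and *Tomm5* encode parts of the mitochondrial protein import machinery, *Etfa* a flavoprotein that delivers electrons to ubiquinone, *Itgb4* an integrin subunit and *Lpl* lipoprotein lipase. *Dnajc19* had 42.15, 37.35, 35.1 and 32.7 CPM in WT Old and 43.1, 33.1, 33.9 and 31.3 CPM in C2-/- Old, in the same order of the 8 mice as the mean of the subunits, except that the mice numbered 1 of both genotypes changed places.

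Markers of other cell and fibre types were set beside these levels. The 9 markers of type IIa and slow fibres summed to 595, 242, 441 and 375 CPM in WT Old and 373, 225, 304 and 495 CPM in C2-/- Old, most of it *Myh2*, the myosin of type IIa fibres, with 195 to 532.6 CPM in WT Old and 178.8 to 438.7 CPM in C2-/- Old. The mean log2 level of this list, in which each marker counts alike, was 0.65, −0.54, 0.0058 and 0.95 in WT Old and 0.17, −0.86, 0.05 and −0.415 in C2-/- Old. The sum was highest in WT Old mouse 1 and C2-/- Old mouse 4, and the mean log2 level in WT Old mouse 4 and C2-/- Old mouse 1, so that the order of the mice depended on the measure. Of the 9 markers, 7 had a log2 fold change below 0, against 54.2% of all tested genes, with a median of −0.33. In edgeR's test 2 of these had p under 0.05 before adjustment, against 1.91% of all tested genes with a lower level. They were the slow-fibre genes *Myl2* and *Myh7*, with log2 fold changes of −1.66 and −2.47 (SEs 0.449 and 0.999, Benjamini-Hochberg adjusted p = 0.615 and 0.914, edgeR). *Myh7* had 2.62, 0.365, 2.05 and 20.9 CPM in WT Old and 1.86, 0.446, 1.74 and 0.624 CPM in C2-/- Old, highest in WT Old mouse 4. *Myl2* was low throughout, with 1.35, 1.86, 1.34 and 4.13 CPM in WT Old and 0.833, 0.372, 0.568 and 0.971 CPM in C2-/- Old. It too was highest in WT Old mouse 4. The 9 markers of tendon and fibroblasts summed to 149.5, 98.7, 319.5 and 231 CPM in WT Old and 266, 394, 446 and 508 CPM in C2-/- Old. For this list 7 of 8 tested genes had a log2 fold change above 0, where 54.2% of all tested genes were below 0. In edgeR's test 3 of these had p under 0.05 before adjustment, against 3.38% of all tested genes with a higher level. They were *Col1a1*, *Col3a1* and *Tnmd*, with log2 fold changes of 1.30, 1.38 and 1.43 (Benjamini-Hochberg adjusted p = 0.608, 0.755 and 0.882, edgeR). *Tnmd* was low, with 0.219 to 1.46 CPM in WT Old and 1.14 to 3.16 CPM in C2-/- Old. The mice with the highest subunit levels, WT Old mice 1 and 2 and C2-/- Old mouse 1, had the lowest sums of their groups. The 6 markers of smooth muscle and pericytes summed to 225 to 372.5 CPM in WT Old and 356 to 427 CPM in C2-/- Old. Of these, 6 of 6 had a log2 fold change above 0, and 2 had p under 0.05 before adjustment, against 3.38% of all tested genes with a higher level. The 2 genes were *Cspg4* and *Pdgfrb*, with 0.70 and 0.33 (SEs 0.22 and 0.14, Benjamini-Hochberg adjusted p = 0.732 and 0.922, edgeR). The 6 adipocyte markers summed to 89.6 to 133 CPM in WT Old and 95.3 to 146 CPM in C2-/- Old, and of the brown adipocyte markers *Cidea* was below the filter. Red cell markers summed to 4343, 6294, 483 and 777 CPM in WT Old and 3779, 907, 1481 and 5886 CPM in C2-/- Old. The immediate early genes summed to 190.3, 768, 149.5 and 1558 CPM in WT Old and 169, 1011, 179.8 and 147 CPM in C2-/- Old. In the lists of macrophages, endothelium, Schwann cells, adipocytes, red cells and immediate early genes, 0 genes had an unadjusted p under 0.05 in edgeR's test, against 5.29% of all tested genes. The log2 fold change was above 0 for 6 of 6 macrophage, 5 of 6 adipocyte and 3 of 5 endothelial genes. It was below 0 for 5 of 6 Schwann cell, 2 of 3 red cell and 7 of 7 immediate early genes, against 54.2% of all tested genes. The part of these cells in the subunit levels was not tested.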

How the data were processed

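Each of 4 WT Old and 4 C2-/- Old mice gave 1 library, and its label gave the genotype. The paper's methods describe alignment to GRCm38.p6 with HISAT and counting per gene with featureCounts, and the submitters' processing notes also name Bowtie2 and DESeq2. The authors deposited 1 table with estimated counts per mouse that were not normalized, of which 5.50% to 6.53% per mouse are not whole numbers. TPM values per mouse, scaled by the authors for transcript length, were used to compare genes with each other. The table also holds 8 columns of FPKM values, and log2 fold changes, p-values and q-values of the authors' own comparison. None of these were used. Of 16687 rows, 16686 had a gene ID, and 25 gene symbols were restored through it.

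Counts were rounded, and all 12542 genes that passed edgeR's default filter were tested with its quasi-likelihood F test (edgeR 4.0.16, R 4.3.3, TMM factors of 0.929 to 1.03) with Benjamini-Hochberg adjustment. Calls required an adjusted p under 0.05 and a change over 1.5-fold. CPM used TMM factors and log2 CPM a prior count of 2. Alternatives were limma-voom (limma 3.58.1), which the study's methods give, DESeq2 1.42.0, its size factors, other filters, the replicate block and fits without each mouse. Isoform shares were compared with two-sided exact permutation tests (scipy 1.17.1). Scripts were tested on simulated data. Figures were drawn with matplotlib 3.10.9.

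Values are given for genes whose genotypes do not overlap, the 2 genes with the smallest p and the gene with the highest TPM of each complex, core subunits, isoform pairs, genes below the filter, the 2 genes with the smallest p of each pathway list, and the 5 genes most like the mean of all subunits. Some genes that this rule names are not reported here. Members, lists and rules were chosen with earlier results of these data known, and the promoter motifs, the split by transcript length, the counts of intervals within 1.5-fold and of genes below 0, and the fit without both mice numbered 1 after these values were seen. Transcript lengths came from GENCODE vM21, as the longest RefSeq-matched transcript of each gene, for 98.8% of the tested subunits. P-values measure the spread between these 8 mice. Intervals of shares cover counting error only.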

Additional observations from a re-analysis of the deposited data

Results flagged for a closer look

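Among 82 groups of 4 mice examined for a value that stands far from the others, 5 were found, where chance gives about 1 in 20. The share of *Cox8b* in its pair was lowest in WT Old mouse 2, 87.5% against 92.3% to 92.4% in the other WT Old mice, and its gap took 0.980 of the range of the group.

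The other 4 values belong to C2-/- Old mouse 1, which was the highest of its group. Its gap was 0.902 of the range for the level of complex IV, 0.895 for *Cox4i1*, 0.833 for *Ndufa4* and 0.882 for *Sdha*. *Ndufa4* had 231.5 CPM in this mouse and 179, 185 and 176 CPM in the other C2-/- Old mice.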

How the results depend on the processing

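In each of the 15 alternatives, 0 subunit genes were called between the genotypes and 0 had an unadjusted p under 0.05 with a higher level in C2-/- Old. The number with an unadjusted p under 0.05 and a lower level was 1 instead of 0 with DESeq2's Wald test. It was 0 to 1 with a mouse left out, with 1 without C2-/- Old mouse 1 and 1 without C2-/- Old mouse 3. Over all tested genes, in either direction, p was under 0.05 for 725 of about 12540 with DESeq2's Wald test. Without C2-/- Old mouse 1 this held for 530 of about 12660 genes in edgeR's test. With CPM of the total counts, 0 instead of 1 subunit gene had genotypes that did not overlap. The number of genes with a log2 fold change below 0, 74 of 83, was also 74 under every other normalization, filter and test and under the replicate block, but ranged from 29 to 82 with a mouse left out, with 29 without WT Old mouse 1 and 47 without C2-/- Old mouse 4. The cause was not tested. With both mice numbered 1 left out, an alternative chosen after seeing the data, it was 66, and the median log2 fold change was −0.07. The medians of complexes I to V ranged from −0.17 to 0.04, −0.12 to 0.09, −0.18 to 0.02, −0.22 to 0.04 and −0.19 to −0.0046 with a mouse left out. Their movement stayed under the standard deviation between mice. That standard deviation is larger than the medians themselves, so that this does not show them to be stable, and those of complexes I to IV changed sign. The number of genes with an interval within 1.5-fold, 73, ranged from 59 to 75 with a mouse left out and was 80 under the replicate block.

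Both genotypes carry mouse numbers 1 to 4, which belong to different mice. Deviations of mice with the same number correlated over genes with 0.27, 0.04, −0.05 and 0.02, and those of mice with different numbers with −0.23 to 0.20. The mice numbered 1 thus had the highest correlation, while the other numbers did not stand out, and the numbers were not taken as pairs. With the replicate number as a block 0 subunit genes were called and the median log2 fold change was −0.08. For 10 of the 83 genes the interval reached beyond 1.5-fold, so that 4 mice per group cannot show whether they changed that much.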
